A study of Caenorhabditis elegans with 4 samples.

Results

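The X chromosome of Caenorhabditis elegans carried 655 of the 3890 PHA-4 peaks in the combined peak list of the series (16.8%, interval 15.7% to 18.1%). The members were chosen by their chromosome label alone. They were set beside the 3901 X peaks of the 19158 in the replicate 1 list and the 4007 X peaks of the 19505 in the replicate 2 list. The authors' q-values ordered the combined peaks, and their scores ordered the replicate peaks as far as they could. The score is capped, and 4569 peaks of replicate 1 and 4615 of replicate 2 share its maximum. Their order, which includes all of the first 3890 ranks of each list, is that of the numbers in the deposited peak names. Rank 1 is the first peak of a list.

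PHA-4 is the worm FoxA protein, a forkhead transcription factor that specifies the pharynx and is also present in the intestine and in parts of the gonad. FoxA factors are known for binding closed chromatin early and for staying at target genes through differentiation. The worm X chromosome differs from the autosomes in several known ways: hermaphrodites carry a pair of X chromosomes whose transcription is lowered by a dosage compensation complex, the X is poor in germline-expressed genes, and its genes are spread more evenly between centre and arms than those of the autosomes.

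There were 2 ChIP libraries for PHA-4, and 2 of Input (sonicated chromatin before precipitation), all from L4 hermaphrodites of strain OP37 grown at 20 °C. Formaldehyde was used at 2% for every library. Every library carried the mutation unc-119(ed3) III and the transgene wgIs37, which holds unc-119(+) as a rescue and the fusion pha-4::TY1::EGFP::3xFLAG. The transgene was brought in by bombardment, and ChIP used antibodies to GFP. Chromatin came from whole animals, so a peak cannot be assigned to the pharynx, the intestine or another tissue. The lists give no read counts and depth is therefore unknown; no peak list of Input was used here, and the labels do not tell whether separate cultures gave the 2 ChIP libraries, whose spread may be technical. Intervals given with a share of peaks are 95% Clopper-Pearson ones, which allow for counting error alone. Positions are those of WormBase WS220 and, as no genome or annotation of that build was used, X regions are described by position and not by gene or sequence.

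PHA-4 occupied X at 37.0 combined peaks per Mb, against 39.2 per Mb over the 5 autosomes, where single chromosomes ran from 20.5 to 50.5 per Mb. The X peaks covered 357.9 kb, or 2.02% of X, against 1.88% of the autosomes. X makes up 17.7% of the nuclear length. Each library alone placed a larger part of its peaks on X: 20.4% (19.8% to 21.0%) of the nuclear peaks of replicate 1 and 20.6% (20.0% to 21.1%) of those of replicate 2. Both of these intervals lie above the share of length, while the interval of the combined list includes it. At the length of the combined list the shares were as large: among the first 3890 peaks, X held 20.4% of the nuclear ones in replicate 1 and 20.4% in replicate 2. By density X was not the highest chromosome in any of these sets. Whole lists gave it 220.2 peaks per Mb in replicate 1 and 226.2 in replicate 2. Single autosomes ran from 146.0 to 224.3 and from 147.3 to 228.7. Among the first 3890 peaks X had 44.5 and 44.4 per Mb. Single autosomes there ran from 27.2 to 47.4 and from 26.7 to 48.4.

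The share of X followed no steady course along the lists. In replicate 1 it was 19.8% among ranks 1 to 2000, at its highest 22.4% among ranks 8001 to 10000 and 17.8% among ranks 18001 to 19158. In replicate 2 it was 19.8%, at its highest 23.2% among ranks 4001 to 6000, and 17.7% from rank 18001 to the end. The last class of both lists was thus near the share of length, and every earlier class was above it as a point value. In the combined list X held 15.6% of ranks 1 to 1000, 18.0% of ranks 1001 to 2000, 16.8% of ranks 2001 to 3000 and 17.0% of ranks 3001 to 3890. X held 10 of the first 100 combined peaks. It held 17 of the first 100 peaks in replicate 1 and 13 in replicate 2.

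The profile along X varied from bin to bin, with its lowest point near the left end. Over the 17 complete 1-Mb bins the combined list had between 18 and 54 peaks, with a median of 36. The fullest bin was X 6000001 to 7000000 with 54 combined peaks, followed by X 11000001 to 12000000 with 48. Bins X 4000001 to 5000000 and X 14000001 to 15000000 came next with 45 each. The emptiest was X 1000001 to 2000000 with 18 peaks, then X 1 to 1000000 with 22. The bins X 5000001 to 6000000 and X 15000001 to 16000000 had 30 each, and the partial last bin, from X 17000001, had 27. Both replicate lists also had their lowest complete bins at the left end, with 144 and 135 peaks in the first and second bins of replicate 1 and 148 and 151 in those of replicate 2. The bin from X 6000001 was the fullest in each, at 276 peaks in replicate 1 and 276 in replicate 2.

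**Figure D1:**
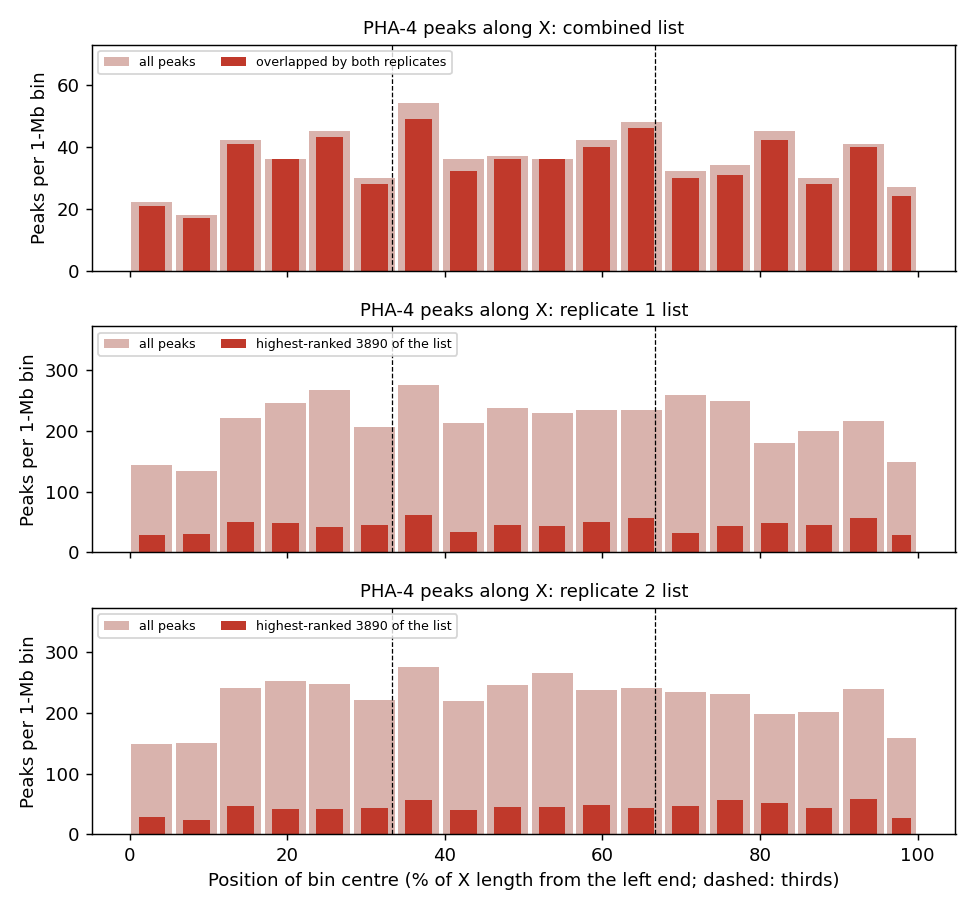
Peaks per 1-Mb bin along X (vertical axis) against the bin's position in percent of X length, for the combined list and each replicate list. Pale bars are all peaks; dark bars are the combined peaks overlapped by both replicates or the highest-ranked 3890 of a replicate list. The combined bars run from 18 to 54 in complete bins and are lowest near the left end.

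The lists resembled each other over these bins. Pearson's r over the 17 complete bins was 0.92 between the full replicate lists (Spearman's rho 0.77) and 0.72 between their 3890 highest-ranked peaks (rho 0.63). Between the combined list and the highest-ranked peaks r was 0.80 for replicate 1 (rho 0.72) and 0.72 for replicate 2 (rho 0.50). These are descriptions, since the bins share libraries and their depth and the combined list stands for both libraries. The right end of X held more peaks than the left end in each list, a difference given without a test. The first 500 kb held 5 combined peaks, 43 peaks of replicate 1 and 38 of replicate 2. The last 500 kb held 19, 100 and 106.

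X was then divided into left, central and right segments of 5.91 Mb each, to set the arms against the centre. The left segment held 191 combined peaks (29.2%, 25.7% to 32.8%), the central one 248 (37.9%, 34.1% to 41.7%) and the right one 216 (33.0%, 29.4% to 36.7%). In peaks per Mb this was 32.3, 42.0 and 36.6. The central share exceeded the 33.3% set by length (two-sided exact binomial test, p = 0.0145), and so did that of the whole replicate lists, at 36.3% (34.8% to 37.9%; exact p = 8.70e-05) in replicate 1 and 36.6% (35.1% to 38.1%; exact p = 1.78e-05) in replicate 2. The first 3890 peaks of replicates 1 and 2 held 788 and 787 X peaks, against 655 in the combined list. There the central share was not called, at 35.8% (exact p = 0.151) and 34.8% (exact p = 0.385). The call in the combined list was also lost when neighbours within 10 kb were joined, at 35.2% (exact p = 0.442), and among the 325 X peaks in the 1945 combined peaks of lowest q, at 35.4% (exact p = 0.444). Binomial and Fisher tests here treat peaks as independent. Neighbours are not, which makes such p-values too small.

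In the whole replicate lists the segments kept the order of the combined list, with 1203, 1417 and 1281 peaks over left, central and right in replicate 1 and 1243, 1465 and 1299 in replicate 2. The highest-ranked peaks of replicate 1 divided as 243, 282 and 263 over left, central and right segments. Those of replicate 2 divided as 224, 274 and 289, with more peaks on the right than in the centre. The left segment was the lowest in each of these lists. Its interval in the combined list lay below 33.3%, as did that in the highest-ranked peaks of replicate 2 (28.5%, 25.3% to 31.8%), while that in replicate 1 included it (30.8%, 27.6% to 34.2%). In the whole lists the left interval lay below 33.3% in both, at 29.4% to 32.3% in replicate 1 and 29.6% to 32.5% in replicate 2.

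Peaks on X lay in the centre less often than autosomal peaks did. The central share was 37.9% (248 of 655) on X and 44.4% (1436 of 3235) on the autosomes, an odds ratio of 0.763 (Fisher's exact test, two-sided, Benjamini-Hochberg adjusted over 4 comparisons of X with the autosomes, p = 0.00427). In the whole replicate lists the shares were 36.3% on X against 42.3% on the autosomes in replicate 1, and 36.6% against 42.0% in replicate 2, with odds ratios of 0.777 and 0.797 (Fisher's exact test, adjusted p = 3.12e-11 and 1.74e-09). In the first 3890 peaks they were 35.8% against 46.9% and 34.8% against 46.8%, with odds ratios of 0.630 and 0.606 (Fisher's exact test, adjusted p = 3.55e-08 and 4.70e-09). X was the lowest chromosome in each list. Among the autosomes the share ran from 40.5% on III to 49.8% on I in the combined list, and the intervals of X and III overlapped (34.1% to 41.7% and 36.8% to 44.3%). The p-values above count peaks and do not measure this spread between single autosomes.

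**Figure D2:**
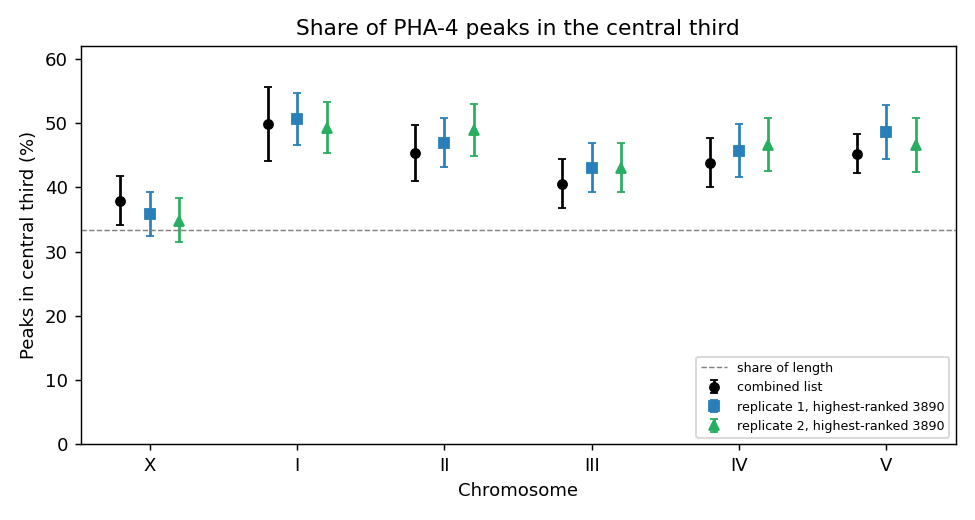
Share of peaks with their midpoint in the central segment (vertical axis, percent, with exact 95% intervals) for X and each autosome, in the combined list and in the highest-ranked 3890 peaks of each replicate. The dashed line is the segment's share of length; X stands at 37.9%, 35.8% and 34.8%, below every autosome in the same list.

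PHA-4 peaks on X had a larger median width than those of any autosome, while the widest X peak was narrower than the widest of each autosome. The median width of the X peaks was 451 bp (interquartile range 348 to 626 bp, full range 200 to 2695 bp), against 373 bp over all autosomal peaks, where chromosome medians ran from 340 bp on V to 420 bp on I. Of the X peaks 12.2% were up to 300 bp wide, against 25.7% of the autosomal peaks and 20.0% of those outside V. Chromosome I was close to X at 12.9%, and the others ran from 16.7% on II to 37.4% on V. At the other end, 50 X peaks (7.63%, 5.72% to 9.94%) were over 1 kb, against 174 (5.38%) of the autosomal ones, an odds ratio of 1.45 (Fisher's exact test, adjusted p = 0.0272). Single autosomes lay on both sides of X, with 7.77% on I, 7.78% on II, 5.14% on III, 3.85% on IV and 4.64% on V. The call was lost with V left out (odds ratio 1.36, Fisher's exact adjusted p = 0.0790), among peaks found in both replicates and among the peaks of lowest q. Over 2 kb the direction turned, with 5 X peaks (0.763%) and 43 autosomal ones (1.33%; odds ratio 0.571, Fisher's exact adjusted p = 0.330).

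**Figure D3:**
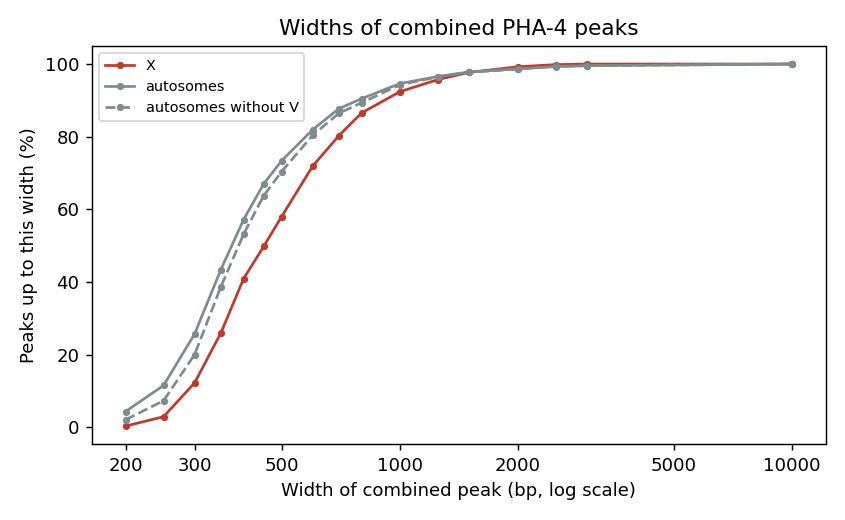
Cumulative share of combined peaks (vertical axis, percent) up to a given width (horizontal axis, bp, log scale) for X, all autosomes and the autosomes without V. The X curve lies to the right in the middle range, with 40.9% of peaks up to 400 bp on X against 57.2% on the autosomes. It meets the others near 1500 bp and lies above them at 2000 bp, with 99.2% against 98.7% on the autosomes and 98.6% without V.

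Width on X went with rank. Spearman's rho between combined rank and width was -0.51 over the 655 X peaks, which is a description of 1 list. The first 164 X peaks had a median width of 624.5 bp and included 34 of the 50 over 1 kb. The next 164 had 491 bp, the 163 after them 382 bp and the last 164 had 347.5 bp. The segments of X differed little, with medians of 457 bp on the left, 452 bp in the centre and 444 bp on the right. The 5 widest X peaks all lay in the right segment, as did 20 of the 50 over 1 kb.

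The leading X peak was X 16929343 to 16932037, which had rank 4 in the whole combined list and, at 2695 bp, was the widest on X. It held 6 peaks of replicate 1, the best at rank 276, and 4 of replicate 2, the best at rank 239. No other combined peak lay within 5 kb of it. The second on X was X 1503550 to 1505383 (rank 26 of the whole list), which lay in one of the emptiest bins, was 1834 bp wide and held 3 peaks of each replicate. The third was X 14743168 to 14745543 (rank 33), 2376 bp wide with 4 peaks of each replicate.

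The fourth, X 10946923 to 10947455 (rank 38), was unlike these: it was 533 bp wide, had no peak in replicate 1 and 1 in replicate 2 at rank 4052. The remaining leading peaks each held between 1 and 4 peaks of replicate 1 and between 1 and 3 of replicate 2. They were X 5479868 to 5480666 (rank 43), X 6749010 to 6750555 (rank 55), X 14559452 to 14560720 (rank 80), X 13143754 to 13145594 (rank 86), X 3472070 to 3472580 (rank 88) and X 4144948 to 4146471 (rank 98). The other members of the 5 widest were X 12652174 to 12654427 with 2254 bp (rank 215), X 15606649 to 15608779 with 2131 bp (rank 148) and X 12517234 to 12519313 with 2080 bp (rank 1286).

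Most X peaks had been found in both libraries. Of the 655, 620 (94.7%, 92.6% to 96.3%) shared 1 bp or more with a peak of replicate 1 and also with one of replicate 2, where the whole combined list gave 88.6%. Replicate 1 alone overlapped 12 more, replicate 2 alone 19 more, and 4 had neither. Those 4 were X 7686729 to 7687200 (rank 130), X 13167889 to 13168276 (rank 782), X 15016145 to 15016519 (rank 1465) and X 7465743 to 7466196 (rank 3191), between 375 and 472 bp wide. Since the combined list represents these very libraries, a high overlap is a description and no independent support.

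Support was higher on X than on the autosomes, at 94.7% against 87.4% (2826 of 3235), an odds ratio of 2.56 (Fisher's exact test, adjusted p = 4.44e-08). An overlap of 1 bp is met more easily where replicate peaks cover more of a chromosome. They covered 6.85% of X and 5.75% of the autosomes in replicate 1, and 7.11% and 5.91% in replicate 2. How much of the difference in support goes with this was not tested. Chromosomes I and II were close to X, at 94.8% and 94.0%, and III and IV had 89.3% and 90.4%. Without V, which had 78.8%, the autosomes stood at 91.5% and the odds ratio was 1.64 (Fisher's exact adjusted p = 0.0152). By rank, the shares were close at first and apart later, which was not tested as an interaction. Among ranks 1 to 1000 support was 97.4% on X and 97.7% on the autosomes, and among ranks 3001 to 3890 it was 92.1% (86.5% to 95.8%) on X and 75.2% on the autosomes. In that last class chromosome I had 92.3% and V 58.9%, with II, III and IV between them at 85.9%, 75.0% and 81.6%. Among the 1945 peaks of lowest q the difference was not called, at 96.9% on X and 95.4% on the autosomes (odds ratio 1.51, Fisher's exact adjusted p = 0.294).

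**Figure D4:**
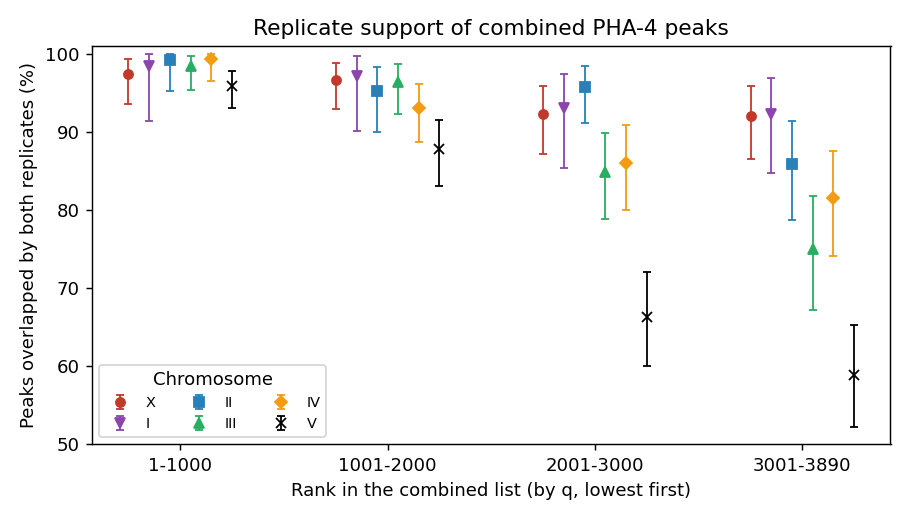
Combined peaks overlapped by a peak of both replicates (vertical axis, percent, with exact 95% intervals; the axis starts at 50) by class of combined rank, for X and each autosome. X goes from 97.4% in the first class to 92.1% in the last, close to chromosome I, while V ends at 58.9%.

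Width moved with this support, on X and on the autosomes. A wider combined peak meets a 1 bp overlap more easily, so a rise with width is partly built into the measure. On X, 91.0% of the 268 peaks up to 400 bp were found in both replicates, 95.1% of the 203 between 400 and 600 bp, 99.3% of the 134 between 600 bp and 1 kb, and 50 of the 50 over 1 kb. Among peaks up to 300 bp, where X had 80 and the autosomes 831, support was 91.3% (82.8% to 96.4%) on X and 76.9% (73.9% to 79.7%) on the autosomes, or 85.1% (81.4% to 88.3%) without V. Between 300 and 400 bp it was 91.0% (85.9% to 94.6%) on X, 87.4% (85.2% to 89.4%) on the autosomes and 90.6% (88.2% to 92.6%) without V. For wider autosomal peaks it was 91.3% between 400 and 600 bp, 96.1% between 600 bp and 1 kb and 98.3% over 1 kb. When overlap had to reach 50% of both peaks, the direction turned, with 64.6% on X and 65.1% on the autosomes (odds ratio 0.979, Fisher's exact adjusted p = 0.822). Under that rule a replicate peak of the usual width cannot match a combined peak over 640 bp, and 24.0% of X peaks and 15.7% of autosomal peaks were wider.

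Positions of the libraries were compared within X peaks. The replicate peaks compared all overlapped the same combined peak, which limits their distance in advance. Over the 620 X peaks found in both, the midpoints of the best-ranked replicate 1 and replicate 2 peaks lay a median of 47 bp apart, 52.7% of pairs were within 50 bp, and 78 were over 200 bp apart. From the combined midpoint the best peak lay a median of 52.5 bp away in replicate 1 (n = 632) and 54.5 bp in replicate 2 (n = 639). Spearman's rho of the best ranks, of which those within the capped scores rest on peak numbers, was 0.39 between the replicates, 0.46 between combined and replicate 1 and 0.47 between combined and replicate 2, over 620 peaks. An X peak of more than 1 kb held a mean of 2.50 ± 1.02 peaks from replicate 1 and 2.40 ± 0.81 from replicate 2 (SD, n = 50 peaks). For X peaks up to 400 bp the means were 0.99 ± 0.34 and 1.02 ± 0.32 (SD, n = 268 peaks).

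Seen from the replicate lists, which are much longer than the combined list, most peaks had no combined partner, on X and on the autosomes. A combined peak was overlapped by 21.0% of X peaks and 25.0% of autosomal peaks in replicate 1. In replicate 2 the shares were 21.0% and 24.0%. Of the 3901 X peaks of replicate 1, 765 overlapped both a combined and a replicate 2 peak, 56 a combined peak alone, 1237 (31.7%) a replicate 2 peak alone and 1843 neither. The 4007 of replicate 2 divided as 767, 75, 1239 (30.9%) and 1926. On the autosomes the part shared by the replicates but outside the combined list was 25.0% in replicate 1 and 24.6% in replicate 2. X peaks of this kind stood lower than X peaks shared by the replicates and also in the combined list. Their median ranks were 8219 in replicate 1 and 8343 in replicate 2, against 2642 and 2678. X peaks with neither partner stood lower still, at 12404 and 12348. Autosomal peaks shared by the replicates but outside the combined list had median ranks of 8337.5 and 8158.5. Sharing between replicates as such was 51.3% (49.7% to 52.9%) for X and 47.1% (46.3% to 47.9%) for the autosomes in replicate 1. In replicate 2 it was 50.1% (48.5% to 51.6%) for X and 46.3% (45.5% to 47.1%) for the autosomes. Both lists were denser on X than on the autosomes as a whole, and the part of this in the sharing was not tested.

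The gap between the lists also showed at equal length. Of the X peaks among the 3890 highest-ranked of replicate 1, 508 of 788 (64.5%, 61.0% to 67.8%) overlapped a combined peak, against 70.6% (69.0% to 72.2%) on the autosomes, where single chromosomes ran from 43.2% to 92.4%. In replicate 2 it was 493 of 787 on X (62.6%, 59.2% to 66.0%) against 68.9% (67.3% to 70.6%) on the autosomes. The highest-ranked X peaks with no combined partner were X 10772074 to 10772389 (rank 164), X 5085573 to 5085888 (rank 301) and X 15616413 to 15616728 (rank 442) in replicate 1. In replicate 2 they were X 15647253 to 15647572 (rank 531), X 13514365 to 13514684 (rank 612) and X 9862861 to 9863180 (rank 666). All but the peak at X 15647253 were overlapped by the other replicate. Where neither replicate's peak touched a combined peak, the best shared positions by mean rank, in replicate 1 coordinates, were X 8019670 to 8019985 (ranks 598 and 1369), X 13514389 to 13514704 (ranks 1414 and 612) and X 13046276 to 13046591 (ranks 1122 and 1427).

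Neighbouring X peaks were separated by a median of 13722 bp from edge to edge (interquartile range 2935 to 35906 bp), against 10622 bp on the autosomes. Medians were longer than that of X on I (24474 bp) and II (14702 bp) and shorter on III (9645 bp), IV (10490 bp) and V (6802 bp). Of the 654 gaps on X, 216 (33.0%, 29.4% to 36.8%) were under 5 kb, against 1216 of 3230 (37.6%) on the autosomes, an odds ratio of 0.817 (Fisher's exact test, adjusted p = 0.0272). On I and II the share was 23.1% and 32.2%, and on III, IV and V it was 37.4%, 36.9% and 45.3%. The call was lost without V, when the autosomes stood at 34.0% and the odds ratio was 0.959 (Fisher's exact adjusted p = 0.671). In the highest-ranked replicate peaks the direction turned, with 36.0% on X and 34.4% on the autosomes in replicate 1 and 34.9% and 33.0% in replicate 2, and neither passed the test. Gaps were shortest in the centre of X, with a median of 11653 bp, against 16966 bp on the left and 14931 bp on the right.

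The longest stretches of X with no combined peak were X 59414 to 409948 (350.5 kb), X 1627404 to 1909378 (282.0 kb) and X 8836217 to 9068053 (231.8 kb). They were not empty in the libraries. Per Mb, each still held fewer replicate peaks than the whole of X, which had 220.2 and 226.2 in replicates 1 and 2. The first stretch held 22 peaks of replicate 1, the best at rank 2958, and 19 of replicate 2, the best at rank 1895. The second held 22 and 18, with best ranks of 1078 and 3000, and the third held 24 and 29, with best ranks of 2912 and 1075.

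When X peaks with gaps under 5 kb were joined, 340 (51.9%) fell into 124 clusters of 2 or more and 315 stood alone. The same rule put into clusters 40.5% of peaks on I, 51.0% on II, 59.0% on III, 57.4% on IV and 66.6% on V. Clusters of 5 or more numbered 13 on X, 0 on I, 7 on II, 11 on III, 11 on IV and 31 on V. Most X clusters were small: 71 held 2 peaks, 35 held 3 and 5 held 4. Among the other 13, 9 held 5 peaks, 2 held 6 and 2 held 8. Of the 73 peaks in these 13 clusters, 39 lay in the central segment, 19 in the left and 15 in the right. Peaks in clusters of 5 or more had a median width of 499 bp and 71 of 73 were found in both replicates (97.3%, 90.5% to 99.7%), against 420 bp and 92.7% (89.2% to 95.3%) for the 315 single peaks. The median rank on X was 316 in these clusters and 352 for single peaks, and a link of membership with rank was not tested.

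The cluster at X 6737626 to 6750555 held 8 peaks over 12.9 kb and was the best ranked of the 5 fullest. Its peaks were between 244 and 1546 bp wide, covered 56.6% of it and ran from rank 55 to rank 3640 of the combined list. It held 16 peaks of replicate 1 and 17 of replicate 2. The cluster at X 3818979 to 3835968 also held 8 peaks, over 17.0 kb, but they covered 28.5% of it and the best stood at rank 492. It held 16 and 18 replicate peaks. The next were X 4137737 to 4151908 with 6 peaks (45.5% covered, best rank 98), X 10677494 to 10695252 with 6 (16.2% covered, best rank 284) and X 10765056 to 10771377 with 5 (47.8% covered, best rank 185). Every combined peak in these 5 clusters was overlapped by both replicates.

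**Figure D5:**
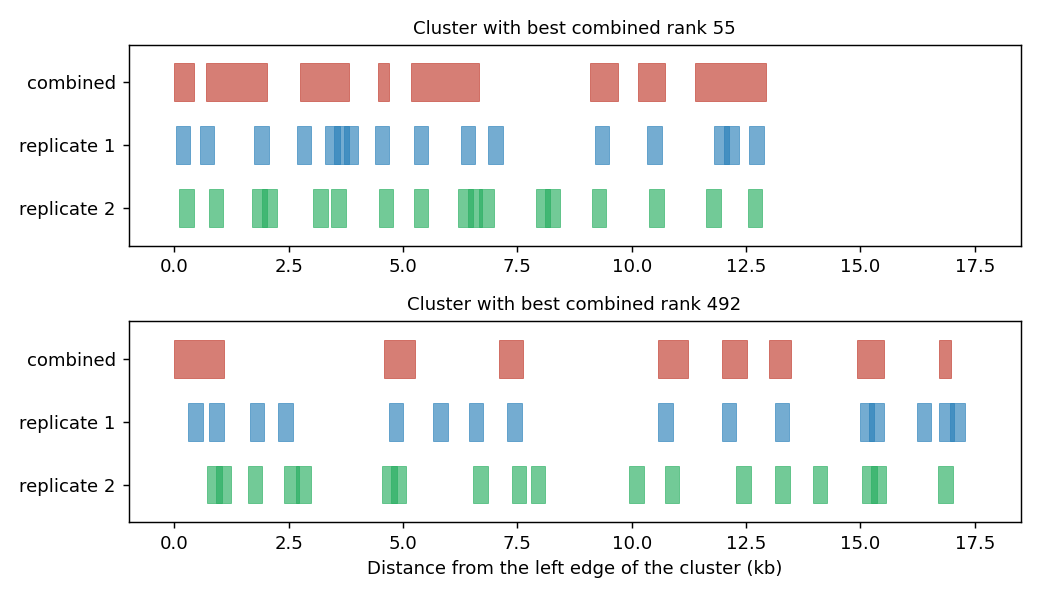
Maps of the 2 X clusters of 8 combined peaks, drawn to scale as distance in kb from the left edge of the cluster (horizontal axis), with combined, replicate 1 and replicate 2 peaks as boxes in separate rows. In the upper map combined peaks cover 56.6% of the cluster and in the lower 28.5%; darker stretches are overlapping replicate peaks.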

How the data were processed

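Peaks were taken from 1 combined list and 2 ChIP replicate lists, all in WormBase WS220 per the file headers. The combined list gives each peak the authors' PeakSeq q-value, per the file headers, and its comment lines record a liftover to WS220. The replicate lists carry a deposited score per peak under the caller name spp_via_IDR, per the file headers. Not given in the sources used here are the score's meaning, the aligner, the thresholds and the use of Input. Replicate peaks were ranked by score, with ties at the capped maximum ordered by the number in the peak's name, so the choice and order of the highest-ranked peaks rest on that number alone. No interval was identical in both replicate lists (0 shared), and the 1 repeated row of replicate 2 was not on X. The highest-ranked set of each replicate was its first 3890 peaks, as many as the combined list holds, mitochondrial peaks left out of shares.

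Overlap meant at least 1 bp. Chromosome length was the largest coordinate in any list (X, 17716682 bp). Shares have exact intervals. Comparisons of X with the 5 autosomes used Fisher's exact test, two-sided, adjusted over 4 comparisons, and the central share an exact binomial test, checked on simulated data. Members, lists and tests were chosen with earlier results of these data known. Peaks were named by rule: the 10 lowest q, 5 widest, 5 fullest clusters, 3 longest gaps, fullest and emptiest bins, up to 5 with no replicate overlap, and the best-ranked replicate peaks with no combined partner. Alternatives were other overlap rules, shorter lists, lower q, other segment, width and gap limits and, added after seeing the data, autosomes without V and the whole replicate lists for the central share. Software was scipy 1.17.1, pandas 2.3.3, numpy 2.4.6 and matplotlib 3.10.9 under Python 3.11.15.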

Additional observations from a re-analysis of the deposited data

How the results depend on the processing

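The lower central share of X than of the autosomes kept its direction and its call under all 9 alternatives, among them a central 50%, the whole replicate lists and autosomes without V. With neighbours joined within 10 kb it was 35.2% on X against 41.3% (odds ratio 0.772, Fisher's exact adjusted p = 0.0304). These alternatives all draw on the same 2 ChIP libraries and are not independent of each other. The central share of X itself kept its call with a central 50%, among peaks found in both replicates and in the whole replicate lists. It was not called at 35.8% and 34.8% in the first 3890 peaks of the replicate lists, 35.4% among the peaks of lowest q and 35.2% with peaks joined within 10 kb. Support of X peaks by both replicates was 64.6% with overlap of 50% of both peaks, 80.2% with midpoints within 200 bp, 56.2% with replicate lists limited to 3890 peaks and 96.9% among the peaks of lowest q. Leaving out a replicate, which asks for support by the other alone, gave 96.5% to 97.6%. The odds ratio of support on X against the autosomes was 0.979 under the 50% rule and 1.51 among the peaks of lowest q, without a call in either, and kept its call under the other 5 alternatives. That of peaks over 1 kb was 1.42 among the peaks of lowest q, 1.36 among peaks found in both replicates, 1.36 without V and, at a limit of 2 kb, 0.571, with no call in any; with a limit of 750 bp it kept its call. That of gaps under 5 kb was 1.07 and 1.09 in the first 3890 peaks of the replicate lists, 0.934 among peaks found in both replicates and 0.959 without V, with no call in any. X peaks in clusters of 2 or more numbered 220 with a 2 kb limit and 115 among the 325 X peaks of lowest q, against 340. Where no value in the report bears on a change, the cause was not tested. No paired analysis was possible because no Input peak list was used, so the replicate numbers join no samples of different groups. Depth is unknown and sets limits that cannot be given.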
